A study of Rattus norvegicus with 6 samples.

Results

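Of the 15345 promoter tiles on rat chromosomes 1 to 20 that could be measured, 2979 (19.4%) had a low ratio of captured methylated DNA over input DNA in granulosa cells of control animals, and these low-ratio tiles are described here. They were chosen on the control arrays alone. A tile is a run of neighbouring probes, the ratio is on the log2 scale after the median of all probes of the same length was taken off, and a tile was chosen when its mean ratio lay under -0.7, or 1.62-fold below that median, on each of the 3 control arrays. All 16001 measured tiles include 557 on the X chromosome and 99 on unplaced sequence, which the choice left out; 107 and 27 of them lay under the same level.

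DNA methylation of the cytosine in CpG pairs is laid down by DNA methyltransferases and is spread over most of a mammalian genome. Promoters rich in CpG, known as CpG islands, are the common exception, and those of broadly used genes are mostly free of methylation in every cell type. Granulosa cells surround the oocyte in the follicle, feed it through gap junctions and turn androgens into oestradiol. In the assay used here an antibody against methylated cytosine pulls down methylated fragments, so a promoter with little methylation or few CpG pairs yields little captured DNA relative to its input.

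The cells came from adult female Sprague Dawley offspring on postnatal day 56. Gavage of their dams from gestation day 1 to 21 was with water in the control group (0 mg/kg) and with a cadmium chloride solution at 8 mg/kg in the cadmium group. Each group has 3 arrays, called biological replicates in the labels. The number of animals and litters behind an array, and its stage of the oestrous cycle, are not given in the sources used here, so a p-value here reflects only how far these samples vary, which may be technical. Cells were pushed out of punctured follicles and passed through a strainer, with no sorting step in the labels, and methylation arrays hold no marker RNA by which the cell type could be checked.

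The 6 arrays carried 172669 probes each, of which 89.7% to 98.2% were well above background in input and 74.1% to 77.7% in captured DNA. Cadmium replicate 2 stood apart: the standard deviation of its probe ratios was 1.55, against 2.09 to 2.23 on the other 5 arrays. By the scan times in the file headers it was a scan batch of its own. Batch 2 held cadmium replicate 1 beside control replicates 1 and 2, and batch 3 held the third array of each group. Differences between groups that this array turns or moves by over 1.5 times are given without it as well. The files place tiles on build rn4 and pair them with no gene, so tiles are named by position and neither genes nor sequences are given.

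The low-ratio tiles sat far under the other autosomal tiles on every array. Their median ratio was -1.10, -1.13 and -1.17 on control replicates 1, 2 and 3, which is what the choice sets. On the cadmium arrays, whose levels the choice did not use, it was -1.13 on replicate 1, -0.76 on replicate 2 and -1.08 on replicate 3. Medians of the 12366 other autosomal tiles ran from -0.045 to 0.0035 over the 6 arrays. Cadmium replicate 1 thus lay within the range of the control arrays. Cadmium replicate 3 lay slightly above it, at -1.08 against -1.17 on control replicate 3 of the same scan batch. Cadmium replicate 2 held the tiles nearer to the array median.

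**Figure D1:**
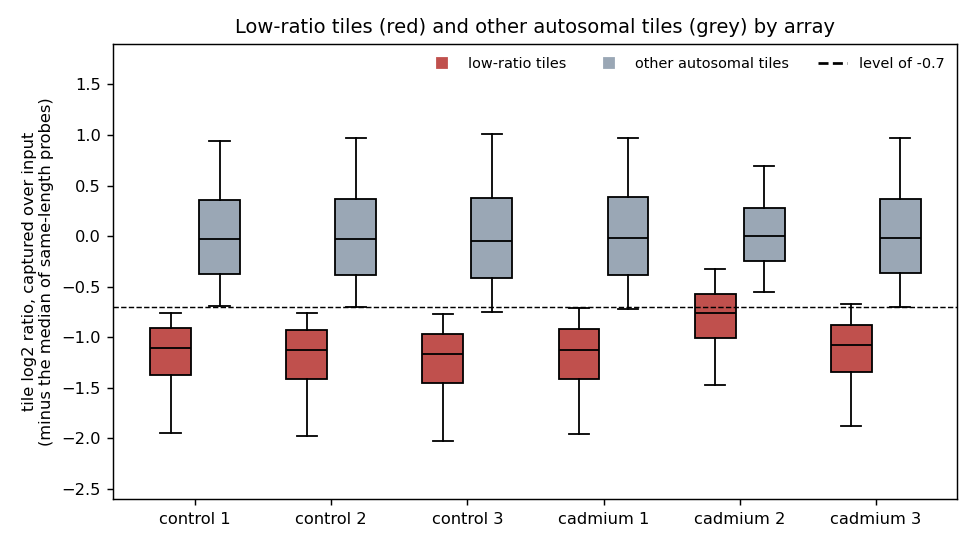
Tile log2 ratio of captured over input DNA on each of the 6 arrays, for the 2979 low-ratio tiles (red) and the 12366 other autosomal tiles (grey); boxes show quartiles and median, whiskers the 5th to 95th percentile, and the dashed line the level of -0.7. Red medians lie between -1.17 and -1.08 on 5 arrays and at -0.76 on cadmium replicate 2.

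Most low-ratio tiles lay not far under the level, with a thin tail of very low values. The mean of the control arrays was between -1 and -0.7 in 1024 tiles (34.4%), between -1.5 and -1 in 1376 (46.2%), between -2 and -1.5 in 446 (15%) and at or under -2 in 133 (4.46%). The 3 tiles just inside the level were chr13:90064503-90065781, chr1:212789764-212791526 and chr9:52839420-52841167, whose highest control value was -0.7002, -0.7003 and -0.7006. The 3 just outside were chr3:143446325-143448105, chr19:31028773-31030371 and chr8:115700391-115701768, with highest control values of -0.69999, -0.6999 and -0.6999. Values of neighbours on both sides of the level therefore do not differ beyond the spread, since the median standard deviation of a low-ratio tile over the 3 control arrays was 0.099.

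A low ratio was not always a low capture. Relative to probes of the same length, captured signal in low-ratio tiles had a median of -0.35, -0.37 and -0.33 (log2) on the control arrays and of -0.33, -0.30 and -0.32 on cadmium replicates 1, 2 and 3. Other autosomal tiles had 0.34 to 0.38 over the 6 arrays. Input signal, which no antibody has selected, was also different: its median was 0.65, 0.68 and 0.71 in low-ratio tiles on the control arrays and 0.69, 0.35 and 0.66 on cadmium replicates 1, 2 and 3, against 0.18 to 0.21 in other autosomal tiles. The gap between both sets of tiles on cadmium replicates 1 and 3 was -0.71 and -0.66 for captured signal and 0.48 and 0.49 for input. On cadmium replicate 2 the gap in captured signal was -0.64 and that in input 0.14, so it was the input that set this array apart in these tiles.

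By their control means, 1797 low-ratio tiles (60.3%) had captured signal under and input over the same-length median. Another 335 (11.2%) had low captured signal with input at or under it, and 847 (28.4%) had captured signal at or over the median together with high input. On the cadmium arrays the same 3 kinds held 1643 (55.2%), 440 (14.8%) and 896 (30.1%) tiles. Of other autosomal tiles, 9.51% had low captured signal with high input in controls, while 2231 had low captured signal with low input and 6900 (55.8%) high signals in both. For the 847 tiles the working name "least methylated" describes the ratio and not the captured DNA, and the name low-ratio tiles is kept for that reason.

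**Figure D2:**
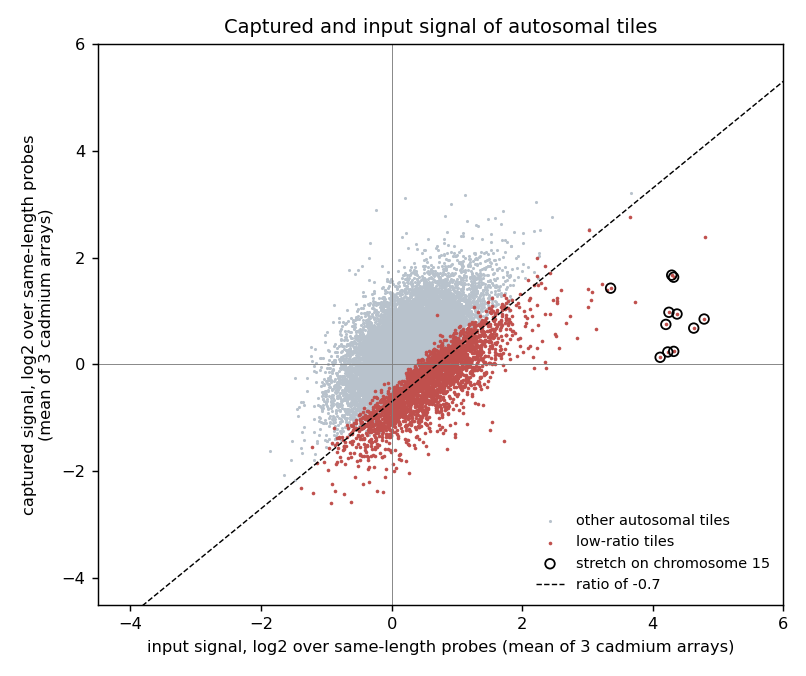
Captured signal against input signal of each autosomal tile, both as log2 over the median of same-length probes and averaged over the 3 cadmium arrays, which the choice of tiles did not use for their level. Low-ratio tiles (red) lie along and below the dashed line that marks a ratio of -0.7, and the 11 tiles of a stretch on chromosome 15 (circled) stand apart at input signals above 3.

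Tiles with more input were low-ratio tiles more often. By input on the cadmium arrays, 440 of 4683 autosomal tiles at or under 0 (9.40%) were low-ratio tiles, 899 of 5744 from 0 to 0.5 (15.7%), 944 of 3442 from 0.5 to 1 (27.4%), 631 of 1396 from 1 to 2 (45.2%) and 65 of 80 above 2 (81.2%). Input is the denominator of the ratio, so this order follows in part from how the ratio is built. Within the same classes the captured signal rose too, from a median of -0.14 to 0.24, 0.53, 0.80 and 1.19, but by less than the input.

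The lowest ratios of all lay in a single stretch on chromosome 15. All 8 low-ratio tiles with the lowest control means among those with at least 6 probes were found from 4980989 to 6289973, a span of 1308985 bp in build rn4 that holds 11 tiles, and all 11 were low-ratio tiles. Tile chr15:6010001-6011547 had ratios of -4.67, -4.89 and -4.68 on control replicates 1, 2 and 3 and of -4.68, -3.61 and -4.38 on cadmium replicates 1, 2 and 3. Tile chr15:5178793-5180348 had -4.49, -4.55 and -4.75 in controls and -4.38, -3.62 and -4.18 in cadmium offspring. Both were among the lowest on all 6 arrays, and cadmium replicate 2 gave the highest value in each. Neither was in the core of 511 tiles, given further on, that stayed under the level in every way of processing compared there. Nor were chr15:6288257-6289973, the next lowest, chr15:5550212-5551768 and chr15:5597810-5599249. Each of the first 2 tiles, and chr15:6288257-6289973, had a value in only 23 of the 24 alternative settings.

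Tile chr15:5672589-5674071 was the highest of the 11, with -2.26, -2.30 and -2.25 in controls and -2.25, -1.76 and -2.06 in cadmium offspring. Captured signal over the stretch was not low, with control means from 0.057 to 1.63 and a median of 0.87, which is over the median of same-length probes. Input was the extreme: its control means ran from 3.59 to 5.34 and had a median of 4.74, or 12.1-fold to 40.4-fold over same-length probes, and the median on the cadmium arrays was 4.29. None of the 73 probes in the stretch was saturated in input on any array (0 of 73 on each). Between groups the 11 ratios differed by 0.25 to 0.67 (cadmium minus control), with a median difference of -0.47 in input and 0.037 in captured signal, and none passed (limma, adjusted p = 0.930 each). Without cadmium replicate 2 they differed by 0.12 to 0.45, with medians of -0.24 in input and 0.060 in captured signal. After all arrays were given equal spread, the 8 lowest tiles differed by -0.086 to 0.19, and 3 of them were below 0. What the stretch contains was not analysed here.

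**Figure D3:**
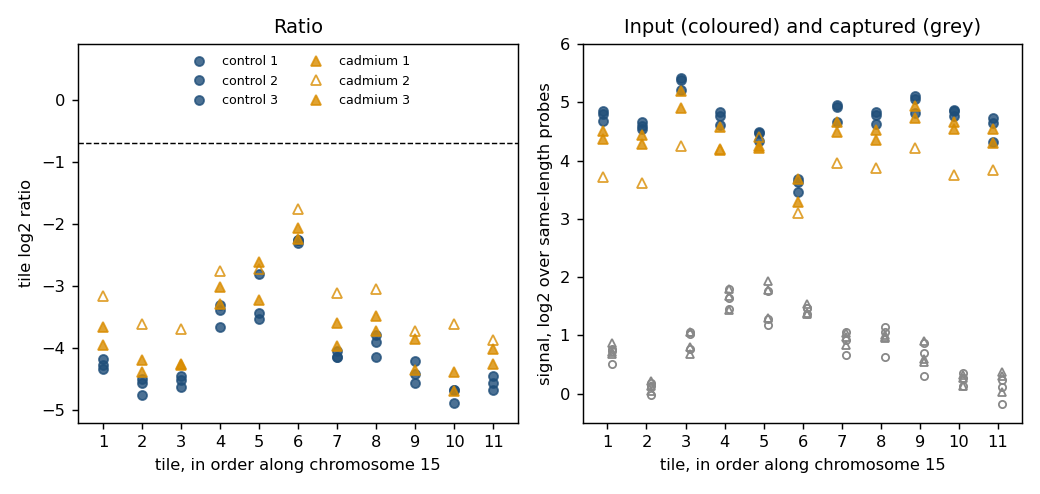
The 11 tiles of the stretch on chromosome 15 in order of position. The left panel shows the tile log2 ratio on each array (control circles, cadmium triangles, cadmium replicate 2 open) with the level of -0.7 dashed; the right panel shows input (coloured) and captured signal (grey) as log2 over same-length probes. Control means of input run from 3.59 to 5.34 and those of captured signal from 0.057 to 1.63.

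High input was rare elsewhere. The counts that follow include the 11 tiles of the stretch, all with input above 3. In controls, 94 low-ratio tiles (3.16%) had input above 2, against 24 other autosomal tiles (0.194%), and of the 94, 20 lay on chromosome 1, 15 on chromosome 15, 11 on chromosome 5 and 10 on chromosome 7. Above 3 there were 24 low-ratio tiles and 2 others.

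At the other end were tiles with little captured DNA and ordinary input, which come closest to what a sparsely methylated promoter would give. The 5 named next were chosen after values had been seen, as those with the lowest captured signal among tiles that stayed under the level in 10 other ways of processing given further on. Tile chr19:311508-312916 had ratios of -2.57, -2.50 and -2.74 in controls and of -2.70, -1.45 and -2.57 in cadmium replicates 1, 2 and 3, with captured signal of -2.45 and input of 0.031 in controls. Tile chr1:78525663-78526743 had -2.62, -2.57 and -2.43 in controls and -2.28, -1.73 and -2.34 in cadmium offspring, with a captured signal of -2.05 and input of 0.38. Control and cadmium ranges of the first overlapped, and those of the second did not.

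Tile chr18:29433957-29435592 had -2.05, -2.15 and -2.25 in controls and -2.10, -1.37 and -2.24 in cadmium offspring. The captured signal there was -2.31 and the input -0.30. Tiles chr5:159947082-159948104 and chr16:62307229-62308678 had captured signals of -1.98 and -1.94 with input of -0.21 and -0.075, and control mean ratios of -1.90 ± 0.15 and -1.97 ± 0.16 (SD, n = 3). In these 5 tiles captured signal was far below, and input close to, that of same-length probes.

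In size and build the low-ratio tiles were like the rest. Their median length was 1636 bp, against 1639 bp in other autosomal tiles, and their median number of probes 9 against 8. Probes of 45 bases, the shortest on the array, made up 47.8% of their 25555 probes and 49.7% of the 120095 others. Tiles over 3000 bp were 34 low-ratio tiles (1.14%) and 286 others (2.31%). The longest low-ratio tile was chr1:116165050-116214893, with 227 probes over 49844 bp. Its ratios of -0.76, -0.80 and -0.74 in controls and -0.81, -0.78 and -0.61 in cadmium offspring lay near the level on all arrays. Tile chr10:859354-876179 (75 probes) had -1.27, -1.25 and -1.33 in controls and -1.26, -0.98 and -1.12 in cadmium offspring, and tile chr1:73170378-73183733 (61 probes) -0.88, -1.03 and -0.91, and -1.01, -0.74 and -0.82.

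Low ratios were spread over a tile without a dip at its centre. In the 2525 low-ratio tiles of 1200 to 2200 bp with at least 5 probes, probes within 200 bp of the centre had a mean of -1.198 in controls and -1.04 in cadmium offspring. At 200 to 400 bp the means were -1.18 and -1.01, at 400 to 600 bp -1.21 and -1.04, at 600 to 800 bp -1.198 and -1.03, and beyond 800 bp -1.35 and -1.17. Inner probes (under 400 bp) were lower than outer ones (600 bp and more) in 47.4% to 48.9% of 2476 tiles on the 6 arrays, and in 47.1% to 47.8% of 10589 other tiles.

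Probes of a low-ratio tile varied among themselves. In controls 75.3% of their probes lay under 0, against 49.0% in other autosomal tiles, yet only 273 tiles (9.16%) had every probe under 0 and 61 (2.05%) every probe under -0.7. At least 1 probe above 1 was found in 1748 tiles (58.7%). Captured signal was well above background in 18101 to 19154 of the 25555 probes over the 6 arrays, and in 80.1% to 82.9% of probes of other tiles. A probe that is not well above background has only a bound on its ratio, and in 289 low-ratio tiles (9.70%) fewer probe readings were above background than not. In 2 tiles no probe was well above background in captured signal on any control array.

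Every autosome held low-ratio tiles, at 14.4% to 24.5% of its tiles. The shares were lowest on chromosome 19 (57 of 397 tiles, 14.4%) and chromosome 14 (78 of 495, 15.8%), and highest on chromosome 15 (110 of 476, 23.1%) and chromosome 20 (116 of 473, 24.5%). Read on cadmium replicates 1 and 3, the shares were 13.4%, 16.4%, 24.2% and 24.1% for the same chromosomes. Probes of 45 bases made up 59.7% on chromosome 19 and 57.3% on chromosome 20, so the lowest and the highest share alike came with many short probes.

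**Figure D4:**
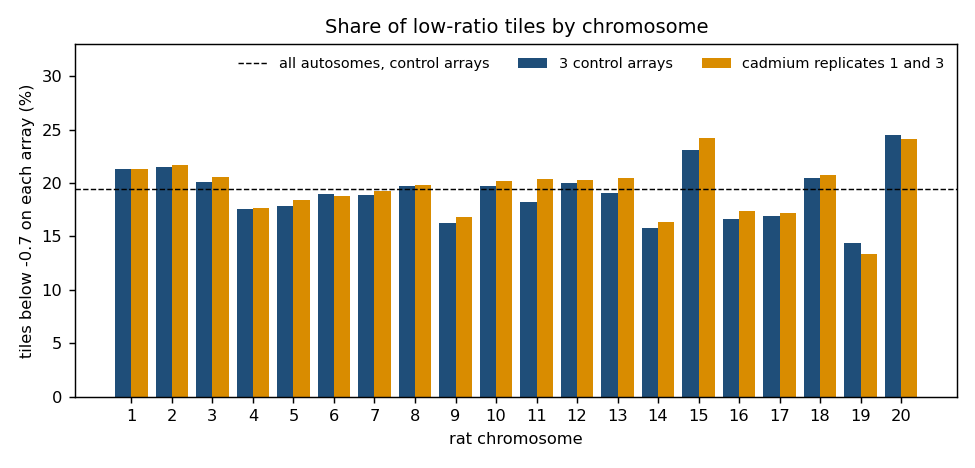
Share of tiles under -0.7 on each rat autosome, on the 3 control arrays (blue) and on cadmium replicates 1 and 3 (orange), with the control share over all autosomes dashed at 19.4%. Chromosome 19 has the lowest control share (14.4%) and chromosome 20 the highest (24.5%).

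Low-ratio tiles tended to have low-ratio neighbours. After a low-ratio tile, the next tile within 10 kb was also one in 94 of 346 pairs (27.2%), and after another tile in 281 of 1399 (20.1%). At gaps of 10 to 50 kb the shares were 317 of 1192 (26.6%) and 854 of 4591 (18.6%), and above 200 kb 92 of 470 (19.6%) and 377 of 2249 (16.8%). Joined wherever they lay within 100 kb of each other, the tiles formed 2047 groups; 1566 tiles stood alone and 375 (12.6%) were in 57 groups of 5 or more.

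The largest group held 17 tiles on chromosome 20 from 3467553 to 4106529, out of 42 in that span. Its mean ratio was -1.03, -1.02 and -1.03 in controls and -0.88, -0.61 and -0.83 in cadmium replicates 1, 2 and 3, and 6 of the 17 stayed under the level on all cadmium arrays. On chromosome 7 from 13488063 to 14176749, 12 of 14 tiles (85.7%) had low ratios, with group means of -1.36, -1.47 and -1.54 in controls and -1.51, -1.01 and -1.39 in cadmium offspring. There the median input of the 12 was 1.33 and the median captured signal -0.16 in controls. On chromosome 1 from 94359320 to 94789429, 10 of 12 tiles (83.3%) had low ratios, with a median input of 1.35 and captured signal of -0.24.

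Chromosome 20 from 93253 to 429228 held 11 such tiles of 15 (73.3%), and these 11 stayed under the level on all 3 cadmium arrays. Chromosome 10 from 12122236 to 12753271 held 12 of 18 (66.7%), of which 7 stayed under it. Median input of the low-ratio tiles was 0.95 and 1.00 in these groups, above the 0.68 of all low-ratio tiles, and 0.58 in the group of 17.

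The same tiles were mostly low in cadmium offspring as well. Under -0.7 were 2850 of the 2979 tiles (95.7%) on cadmium replicate 1, 2778 (93.3%) on replicate 3 and 1717 (57.6%) on replicate 2. On all 3 cadmium arrays 1640 tiles (55.1%) were under the level, where 11% of all autosomal tiles were, and on replicates 1 and 3 alone 2693 (90.4%), where 19.7% were. The rule read on all 3 cadmium arrays gives 1689 tiles, and the 1640 shared ones are 97.1% of these. Above the level on all 3 cadmium arrays were 37 low-ratio tiles (1.24%), against 73.5% of autosomal tiles.

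Tiles chosen for low control values are bound to sit somewhat higher in other arrays, so their differences are given as a description and tested only within the fit of all tiles. The median difference of cadmium minus control was 0.16 in low-ratio tiles and 0.012 in other autosomal tiles, and 2786 (93.5%) and 6696 (54.1%) were above 0. Without cadmium replicate 2 the medians were 0.041 and 0.011. Within batch 2 the median of the low-ratio tiles was -0.0012, with 49.6% of them above 0, and within batch 3 it was 0.10, with 74.7% above 0. Other autosomal tiles had 0.0079 within batch 2, with 53.3% above 0, and 0.019 within batch 3, with 55.5% above 0. Most of the shift over all arrays thus lay on cadmium replicate 2, whose ratios have the narrower spread. The median difference grew with depth below the level, from 0.13 in tiles between -1 and -0.7 to 0.31 in those at or under -2, and from 0.031 to 0.11 without that array.

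**Figure D5:**
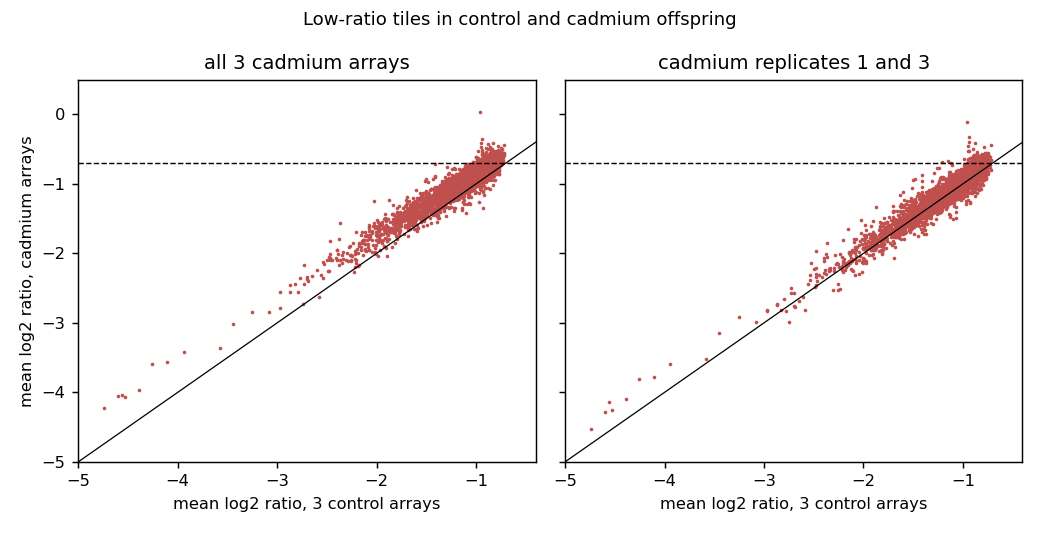
Mean log2 ratio of the 2979 low-ratio tiles in cadmium offspring against that in controls, with all 3 cadmium arrays (left) and with cadmium replicates 1 and 3 (right); the solid line marks equal values and the dashed line the level of -0.7. With all arrays 93.5% of tiles lie above the line of equal values, and with replicates 1 and 3 66.1% do. Of other autosomal tiles, which are not drawn, 54.1% and 55.1% were higher in cadmium offspring.

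By channel, the median difference was 0.031 for captured signal and -0.12 for input in low-ratio tiles, and -0.016 and -0.014 in other autosomal tiles. Without cadmium replicate 2 the input difference of the low-ratio tiles was -0.013 and that of captured signal 0.029, so the lower input lay on that array. No low-ratio tile passed the test between groups (limma, adjusted p under 0.05), and 2 of all 16001 tiles did (0.0125%). With 1 array left out, 3 tiles passed without cadmium replicate 2, among them 1 low-ratio tile, 1 without cadmium replicate 3, and 0 without any 1 of the other 4. With scan batch as a block 11 tiles passed, of which 7 were low-ratio tiles. At an unadjusted p under 0.05, 262 low-ratio tiles were higher in cadmium offspring, where 2.6% of all tiles were, and 3 were lower, where 0.625% were. The groups did not overlap in 449 (15.1%) with cadmium higher, against 6.87% of all tiles, and in 7 (0.235%) with cadmium lower, against 2.67%. The choice on control values favours the first and hinders the second of these directions. Both kinds of count include cadmium replicate 2 and are not given without it, while the median difference of low-ratio tiles without it was 0.041. The 1689 tiles under the level on all 3 cadmium arrays, a choice that favours the opposite, had a median difference of 0.14. It was 0.040 without cadmium replicate 2, -0.0084 within batch 2 and 0.11 within batch 3. Of these tiles 1640 were low-ratio tiles too, so this list is no independent check. The 3029 tiles under the level on cadmium replicates 1 and 3 shared 2693 with the low-ratio tiles. Their median difference was 0.15 over all arrays and 0.021 without cadmium replicate 2. It was -0.021 within batch 2, with 43.6% above 0, and 0.083 within batch 3. How much of the counts of low-ratio tiles comes from the choice was not tested.

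The largest difference was in tile chr7:142756446-142758125. Its ratios were -0.978, -0.906 and -1.003 on control replicates 1, 2 and 3 and -0.083, 0.32 and -0.12 on cadmium replicates 1, 2 and 3, so every cadmium array was above every control array. The difference of 1.00 (SE 0.13, 95% confidence interval 0.71 to 1.28) did not pass (limma, adjusted p = 0.0960). Compared with controls of the same scan batch, cadmium replicate 1 was higher by 0.86 and cadmium replicate 3 by 0.88. Among 24 alternative settings 5 gave a pass, and limma's adjusted p ran from 0.000557 to 1.00; without cadmium replicate 2 it was 0.00485. Captured signal differed by 0.057 (SE 0.083; 0.0068 without cadmium replicate 2) and input by -0.94 (SE 0.10; -0.85 without it), so the gap in the ratio lay in the input channel.

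Input carried the other large rises as well. Tile chr20:4997456-5001961 (21 probes) had -2.32, -2.27 and -2.51 in controls and -1.82, -0.97 and -1.89 in cadmium offspring, a difference of 0.81 (0.52 without cadmium replicate 2), with -0.053 for captured signal and -0.83 for input. The neighbouring tile chr20:5020921-5022252 had -1.94, -1.91 and -2.22 in controls and -1.43, -0.70 and -1.61 in cadmium offspring, with -0.80 for input. Tile chr20:3467553-3469019 had -1.41, -1.35 and -1.48 in controls and -0.87, -0.42 and -0.86 in cadmium offspring, with -0.66 for input. Groups did not overlap in these tiles, and none passed over all arrays (limma, adjusted p = 0.930 each). With scan batch as a block, a fit in which cadmium replicate 2 has no partner, all 3 did (limma, adjusted p = 0.0462, 0.0456 and 0.0456 in this order). With the batch as a random block, whose correlation is estimated, none did (limma, adjusted p = 0.294, 0.294 and 0.0806). Without cadmium replicate 2 the second of these tiles differed by 0.50 and the third by 0.55.

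In the fit of the input channel alone, 7 of 16001 tiles passed (0.0437%), and 4 of them were low-ratio tiles, all with less input in cadmium offspring (limma). They were chr7:142756446-142758125 and chr20:3597340-3599244 (adjusted p = 0.0221 each), chr20:3555121-3556840 (0.0312) and chr12:18209069-18210618 (0.0389), with differences of -0.94, -0.71, -0.76 and -0.72. High input in controls lowers the ratio by which tiles were chosen, so these calls are not independent of the choice. Without cadmium replicate 2, 17 tiles passed, 11 of them low-ratio tiles; without cadmium replicate 3, 2 and 1 did; and without any 1 of the other 4 arrays, 1 and 0 did. In the captured channel 0 tiles passed (limma). At an unadjusted p under 0.05 were 571 of all 16001 tiles and 163 of the 2979 low-ratio tiles.

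Over all arrays 193 low-ratio tiles (6.48%) were lower still in cadmium offspring, against 5670 (45.9%) of other autosomal tiles. Without cadmium replicate 2 they were 1010 (33.9%), against 5553 (44.9%). The choice on control values hinders this direction. The 5 low-ratio tiles with the lowest differences follow. Tile chr7:4495890-4497157 had -0.78, -1.15 and -0.86 in controls and -1.35, -1.49 and -1.19 in cadmium offspring, a difference of -0.41 (SE 0.13), with -0.43 for captured signal, though at most 1 of its 5 probes was well above background in that channel on any array. Tile chr20:2784331-2786012 had -1.23, -1.08 and -0.99 in controls and -1.56, -1.27 and -1.45 in cadmium offspring, with a difference of 0.31 in input (0.50 without cadmium replicate 2). Tile chr1:1149705-1150834 had -0.87, -0.92 and -1.12 in controls and -1.31, -1.19 and -1.27 in cadmium offspring, with -0.40 for captured signal. The groups did not overlap in these 3, and none passed (limma, adjusted p = 0.930 each). Tiles chr17:44432705-44433554 and chr13:87444050-87445464 had differences of -0.24 (SE 0.14) and -0.23 (SE 0.16), within groups that overlapped. In the second of these tiles the overlap came from cadmium replicate 2, at -0.91 against -1.42 and -1.55 on cadmium replicates 1 and 3, and without it the groups did not overlap and differed by -0.42. In the first, batch 2 gave a difference of -0.46 and batch 3 one of 0.21.

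Control arrays differed most among themselves in 3 tiles. Tile chr12:33862834-33864249 had -1.31, -1.54 and -2.16 on control replicates 1, 2 and 3, tile chr4:143704060-143705763 -1.58, -1.82 and -2.37, and tile chr20:248260-249563 -1.08, -1.74 and -0.98. In the first and second, control replicate 3 was the lowest, and in the last control replicate 2. Their differences between groups, 0.12, 0.26 and 0.083, were smaller than this spread, and turned to -0.058, -0.034 and -0.024 without cadmium replicate 2.

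Which tiles count as low depends on how the ratio is made. Without the step for probe length, 4579 autosomal tiles lay under -0.7 in controls, and they included 2087 (70.1%) of the 2979. With dim input probes kept there were 2238, including 2189 (73.5%) of the 2979. With both channels required above background 1391 tiles were found, including 1289 (43.3%), after normexp background correction 1098, including 1070 (35.9%), and in the authors' deposited values 1786, including 1671 (56.1%). A core of 511 tiles (17.2%) stayed under the level with the main processing and in 10 other ways of processing, a count made after values had been seen. Some used no length step, no filter on dim probes, both channels above background, no outlier probes or medians of probes. The others used normexp, loess, quantile normalization, equal spread of all arrays or the deposited values. Other tile gaps, levels and blocks were not among them, nor was leaving out an array. The median control ratio of this core was -1.62, with captured signal of -0.37 and input of 1.14, and 469 of the 511 (91.8%) were under the level on all 3 cadmium arrays. In 163 (31.9%) of the core tiles captured signal was at or above the same-length median, and 51 had input above 2. Core tiles were lower in ratio and higher in input than the low-ratio tiles at large, and their choice on the same control values favours both. Of all low-ratio tiles with control means between -2 and -1.5, 97.1% were under the level on all 3 cadmium arrays.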

How the data were processed

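Scanner files of 6 two-colour arrays were used. Per the labels' protocols captured DNA was labelled with Cy5 and input with Cy3. The intensity values were made with Agilent Feature Extraction 11.0.1.1 on build rn4, per the file headers, with background subtraction and a linear dye factor per channel. The deposited table holds log2 values (limma named in the submitters' processing notes; scale, centring and smoothing not given in the sources used here). Its columns correlated at 0.874 to 0.882 with the scanner ratios of the same array, in the direction of Cy5 over Cy3, and had medians of -0.034 to 0.027.

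The log2 ratio of the processed signals was taken for probes that are no controls, and the array's median of probes of the same length (45 to 60 bases) was subtracted. A new tile began where starts lay over 1000 bp apart (16174 tiles). Averages were taken over probes well above background in input on every array, and tiles with at least 3 were kept (16001). Outlier spots were kept. Each channel was centred in the same way. Groups were compared on all tiles at once by limma's moderated test (lmFit, then eBayes; limma 3.58.1, R 4.3.3). The test is two-sided, and p-values were adjusted over the 16001 tiles by Benjamini-Hochberg, at a threshold of 0.05. Alternatives tried include the tile gap, level, filters, normalization, batch and replicate blocks and leaving out each array. No file has mean spot signals, so normexp (offset 50) used medians. On simulated data with the noise of these 16001 tiles and 50 changed tiles per size, 38% of changes of 0.5, 90% of 1 and 100% of 2 were recovered in the comparison of cadmium with control. Changes of all sizes were planted together. The simulated noise was independent between tiles and held no scan batch and no array of narrower spread. These shares therefore need not hold for the real arrays.

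Named tiles were, by rule, the 8 lowest in controls with at least 6 probes, 3 on each side of the level, 5 with the highest and 5 with the lowest difference, 3 with the widest control range, the 3 longest, the 5 largest groups within 100 kb and any that passed. Of the other tiles named, the input calls and the 5 with low captured signal were singled out after their values had been seen. The tiles and the rule that chose them were set with earlier results of these data known. The lists of genes and cell type markers were not used, since the reference tables used here are of another build than rn4. The number of arrays limits the precision.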

Additional observations from a re-analysis of the deposited data

How the results depend on the processing

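The 2979 low-ratio tiles became 4579 without the length step, 1391 with both channels above background, 1098 after normexp, 1786 in the deposited table and 1604 at a level of -1. The other 16 settings gave counts within 1.5 times, 2883 to 3219 with 1 array left out and 2238 with dim input probes kept. Tiles under the level on all cadmium arrays (1640) became 3756, 595 and 674 in the first 3 of these settings, 2809 at a level of -0.5 and 664 at -1; with 1 array left out they numbered 1514 to 2684, the highest without cadmium replicate 2. Between groups, 2 tiles passed over all arrays (limma). With 1 array left out 0 to 3 did, with scan batch as a block 11 (7 of them low-ratio tiles), as a random block 6 (4), with array weights 8 (5), and with medians of probes 0 (511 at an unadjusted p under 0.05). It was 1 without the length step, without outlier probes, after quantile normalization and with the replicate block. Whether replicate numbers pair the arrays is not known, and the block is only a check. Deviations of same-numbered arrays from their group means correlated at -0.066, 0.056 and 0.41, and those of differently numbered arrays at -0.35 to 0.27. Arrays numbered 1, and those numbered 3, also share a scan batch, so these values cannot tell pairing from batch. In the input channel 1 to 17 tiles passed with 1 array left out, against 7, the most without cadmium replicate 2, and in the captured channel 0. The median difference of the low-ratio tiles stayed above 0 in all 24 settings, at 0.041 without cadmium replicate 2 and up to 0.24 without cadmium replicate 1. In most of these settings the tiles were chosen anew on control values, which favours a median above 0. Within batch 2 alone, which is not among the 24, it was -0.0012. Differences of named tiles moved by over 1 SD in 55 of 615 cases. The cause of these changes was not tested, except that a stricter level leaves fewer tiles by construction. Captured signal near background leaves only a bound on the ratio of a probe.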
